A study of Bos taurus with 6 samples.

Results

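RNA-seq data of bovine embryonic stem cells were used to follow 10 genes of the SOX family. The set was chosen by symbol, with earlier results of these data known. The genes were SOX3, SOX4, SOX5, SOX6, SOX8, SOX9, SOX11, SOX12, SOX13 and SOX21, and they do not cover the whole family. Of these 10 genes, 9 were matched in the count table of 19163 genes and in the table of values called TPM. No line of either table was matched to SOX3, and it was not analysed here. The cells were F7, a single line derived from an in vitro fertilized embryo of the Holstein Friesian breed. F7 was grown on mouse embryonic fibroblasts that had been growth-arrested by mitomycin C (MC-F7) or killed and fixed by methanol (MT-F7). There were 3 libraries per group, and the series' design text gives 15 passages for both. Both groups were kept in the same medium, with fibroblast growth factor and the Wnt pathway inhibitor IWR1. The medium was changed daily for MC-F7 and every other day for MT-F7, so the effects of the feeder and of the medium change cannot be told apart. Before RNA was extracted, dissociated cells were left on gelatin for a short time and the floating cells were collected, a step that leaves attached fibroblasts behind. The paper reports a higher rate of alignment to the bovine genome for MT-F7 than for MC-F7. It proposes that fixed feeders left less feeder cell contamination. How far mouse reads entered the counts of either group was not tested. It is not stated that the 3 libraries of a group were grown separately. For its data in general, the paper's statistics section speaks of technical replicates, at least 3. The p-values then measure only the spread between these libraries, which may be technical.

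SOX proteins are transcription factors that bind DNA through an HMG box, and they are sorted into groups by the likeness of that box. SOXC proteins (SOX4, SOX11 and SOX12) are activators in neural and mesenchymal progenitors and in young neurons. SOXE proteins (SOX8 and SOX9) act in neural crest, glia, gonad and cartilage. SOXD proteins (SOX5, SOX6 and SOX13) have no activation domain of their own, and SOX5 and SOX6 are known as partners of SOX9 in cartilage. SOX21 belongs to SOXB2, whose members are repressors that oppose the SOXB1 activators in neural progenitors. No sequence of these genes was in the tables used here, and none is shown.

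Total counts ran from 21958386 to 24933430 per library. Levels are given as counts per 1000000 counts (CPM) after TMM normalization, which sets the libraries to a common scale, with the mean ± SD of 3 libraries. Log2 fold changes are MT-F7 over MC-F7, given with their standard error (SE). A gene was taken as detected from 3 counts on, or 0.120 to 0.137 CPM, and such limits cover counting error only. The groups were compared by the two-sided quasi-likelihood test of edgeR, with Benjamini-Hochberg adjustment over the 13001 genes that passed a filter on low counts, and an adjusted p under 0.05 was the threshold. Exact permutation tests, two-sided, cannot go below p = 0.1 with 3 libraries a group, so the p-values of single genes come from this model.

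The SOX genes did not all move one way. SOX5 and SOX9 rose and SOX11 fell in MT-F7, and the other 5 tested genes (SOX4, SOX8, SOX12, SOX13 and SOX21) did not pass the test. SOX6 had too few counts to be tested. The 3 called genes were 37.5% of the 8 tested, and of all tested genes 23.2% were called. By direction, 2 of the 8 were higher, beside 11.9% of all genes, and 1 was lower, beside 11.3%. For 6 of the 8 genes the groups did not overlap in CPM, beside 40.0% of all tested genes. MT-F7 was higher in 5 of these 6 (19.9% of all tested genes) and lower in 1 (20.1%). A gene could pass the filter through its level in 1 group only, as SOX5 did, so these counts describe the tested genes and not all members. The median log2 fold change of the 8 genes was 0.43, and that of all tested genes was -0.0026. In bulk RNA a change in the share of cells that use a gene and a change in RNA per cell cannot be told apart.

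**Figure D1:**
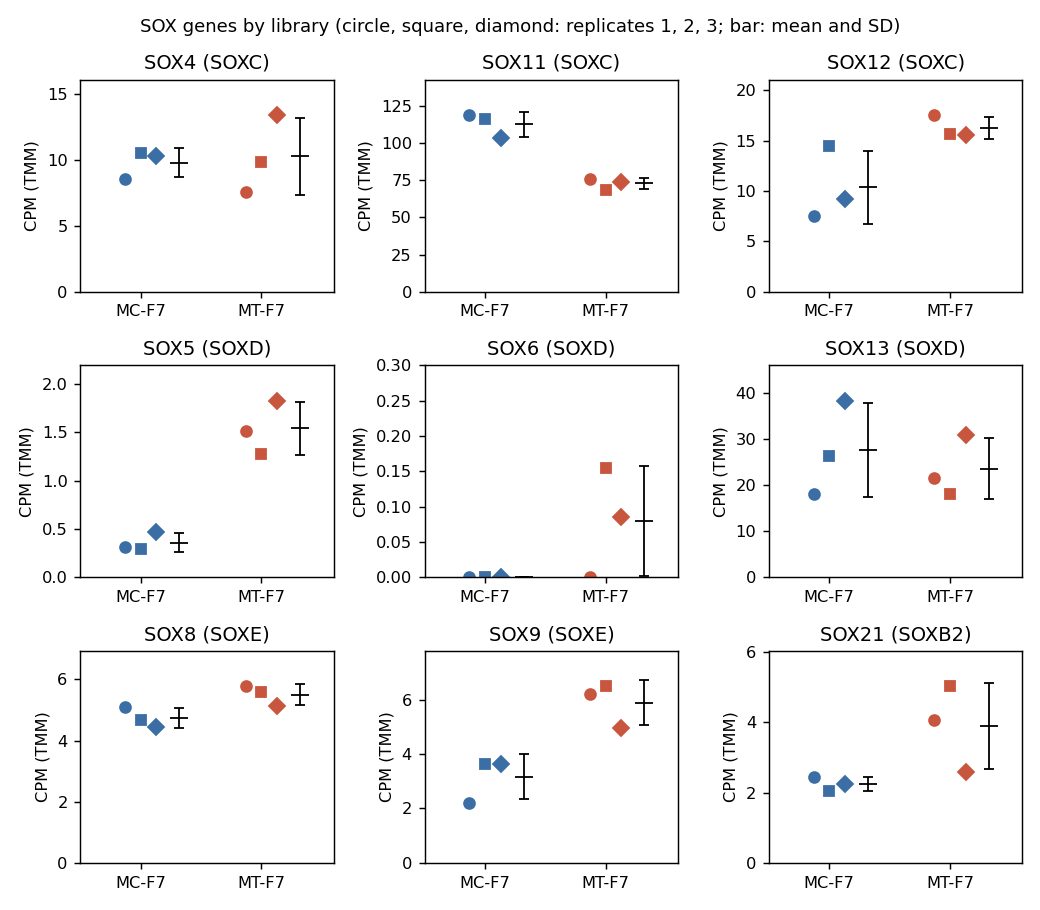
CPM of the 9 matched SOX genes in each library, on linear axes that start at 0 and differ between panels, with circles, squares and diamonds for replicates 1, 2 and 3 and black bars for the mean and SD of 3 libraries. SOX11 lies lower and SOX5, SOX8, SOX9, SOX12 and SOX21 lie higher in all MT-F7 than in all MC-F7 libraries, while SOX4 and SOX13 overlap and SOX6 stays near 0.

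SOX11, an activator of neuronal genes, had by far the most counts of the 9 genes. It was at 119, 116 and 103 CPM in the MC-F7 libraries and at 76.0, 68.4 and 74.0 CPM in the MT-F7 libraries. Every MT-F7 library lay below every MC-F7 library, and no replicate stood apart. SOX11 (Entrez gene 107132954) fell from 113 ± 8.24 to 72.8 ± 3.94 CPM (n = 3), a log2 fold change of -0.63 ± 0.142 (SE, adjusted p = 0.0064). The 95% confidence interval ran from -0.94 to -0.32, so the level in MT-F7 was between 0.522 and 0.800 times that in MC-F7. SOX11 was lower and called in each of the 6 fits that left out 1 library, with log2 fold changes from -0.69 to -0.58. With 1742 to 2793 counts per library, counting error alone would give a spread of 1.98% for MC-F7 and 2.35% for MT-F7. The observed coefficients of variation were 7.32% and 5.42%, so the precision was set by differences between libraries.

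SOX12, the SOXC gene whose loss mice are known to tolerate, had 7.48, 14.4 and 9.17 CPM in MC-F7 and 17.5, 15.6 and 15.6 CPM in MT-F7. The MT-F7 libraries lay close together and above all MC-F7 libraries, but replicate 2 of MC-F7 came near to them. The mean was 10.4 ± 3.63 CPM in MC-F7 and 16.3 ± 1.11 CPM in MT-F7. The log2 fold change was 0.65 ± 0.227 (SE, adjusted p = 0.057), with a 95% confidence interval from 0.16 to 1.14. Without replicate 2 of MC-F7 the log2 fold change was 0.97 and SOX12 passed (adjusted p = 0.012), and in the other 5 fits with 1 library left out it did not. The coefficient of variation of SOX12 was 35.0% for MC-F7 and 6.81% for MT-F7, where counting error gives 6.49% and 4.98%.

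SOX4, a close relative of SOX11 that acts in neural and mesenchymal progenitors, differed by less than its spread. Its values were 8.54, 10.5 and 10.3 CPM in MC-F7 and 7.61, 9.89 and 13.4 CPM in MT-F7. The MT-F7 libraries took both the lowest and the highest place of the 6. The log2 fold change was 0.071 ± 0.222 (SE, adjusted p = 0.85). Its 95% confidence interval ran from 0.753 to 1.47 times the level in MC-F7, so changes within these bounds remain compatible with the values. The direction turned in fits without replicate 3 of MT-F7 (-0.17) and without replicate 1 of MC-F7 (-0.018).

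**Figure D2:**
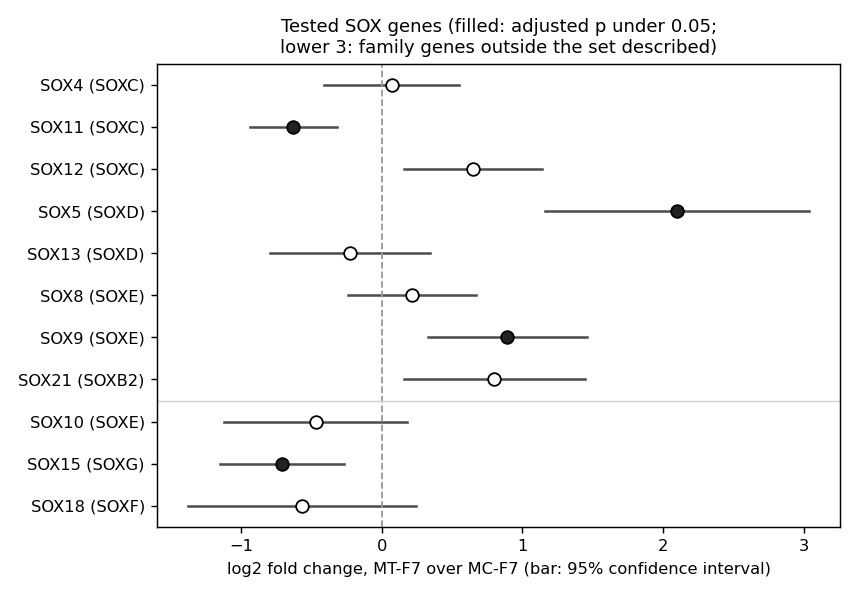
Log2 fold change of MT-F7 over MC-F7 for the 8 tested SOX genes of the set and, under the grey line, 3 further SOX genes, with bars for the 95% confidence interval and filled points for an adjusted p under 0.05. SOX5 lies farthest from 0 at 2.10, SOX11 lies at -0.63, and the intervals of SOX4, SOX13 and SOX8 hold 0.

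SOX11 led the 9 matched SOX genes per length on both feeders, with a smaller share of their sum in each MT-F7 library than in any MC-F7 library. Counts per gene depend on gene length, so levels of different genes were compared in the deposited TPM values, which were taken as counts per length. The gene lengths behind these values were not checked here. In MC-F7 the order of mean TPM was SOX11 (17.2 ± 2.09), SOX13 (3.04 ± 1.01), SOX12 (2.29 ± 0.930), SOX4 (1.08 ± 0.149), SOX21 (0.553 ± 0.0413), SOX8 (0.370 ± 0.0379), SOX9 (0.320 ± 0.0875) and SOX5 (0.0229 ± 0.00497), with SOX6 listed at 0. SOX13 and SOX12 overlapped, as did SOX8 and SOX9, and the other neighbours in this order did not. In MT-F7 the order was SOX11 (12.1 ± 0.593), SOX12 (3.89 ± 0.352), SOX13 (2.84 ± 0.658), SOX4 (1.24 ± 0.304), SOX21 (1.07 ± 0.379), SOX9 (0.653 ± 0.118), SOX8 (0.471 ± 0.0477), SOX5 (0.109 ± 0.0143) and SOX6 (0.00398 ± 0.00398). Here SOX12 overlapped with SOX13, SOX4 with SOX21 and SOX21 with SOX9, and the other neighbours did not overlap. Library size is still in these TPM values, so the groups are compared here by shares and ratios within each library and not by TPM levels.

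SOX11 took 75.7%, 67.5% and 64.4% of the summed TPM of the 9 genes in the MC-F7 libraries and 55.6%, 53.8% and 53.0% in the MT-F7 libraries. The share of SOX12 was 9.03% ± 2.71 on the mitomycin C-treated and 17.4% ± 1.22 on the methanol-fixed feeders, and that of SOX4 was 4.36% ± 0.373 and 5.55% ± 1.47. The 3 SOXC genes together held 82.6% ± 4.76 of the sum in MC-F7, against 77.0% ± 1.01 in MT-F7. A ratio of 2 genes within a library does not depend on how libraries are scaled. SOX11 per SOX12 was 11.1, 5.59 and 7.85 in the MC-F7 libraries, against 3.02, 3.05 and 3.31 in MT-F7. All MT-F7 libraries lay below all MC-F7 libraries, and the mean log2 ratio differed by -1.33. SOX11 per SOX4 was 19.2, 15.2 and 13.772 in the MC-F7 libraries, against 13.769, 9.53 and 7.60 in MT-F7, so the lowest MC-F7 and the highest MT-F7 value were all but equal. Of 5 such ratios, chosen after the values had been seen, 3 were clearly apart between the groups, SOX11 per SOX4 was apart only by that narrow gap, and SOX12 per SOX4 overlapped. The 4 without overlap had the smallest two-sided p that the exact permutation test allows (p = 0.1, adjusted p = 0.125 over the 5 ratios), so none could pass the threshold.

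**Figure D3:**
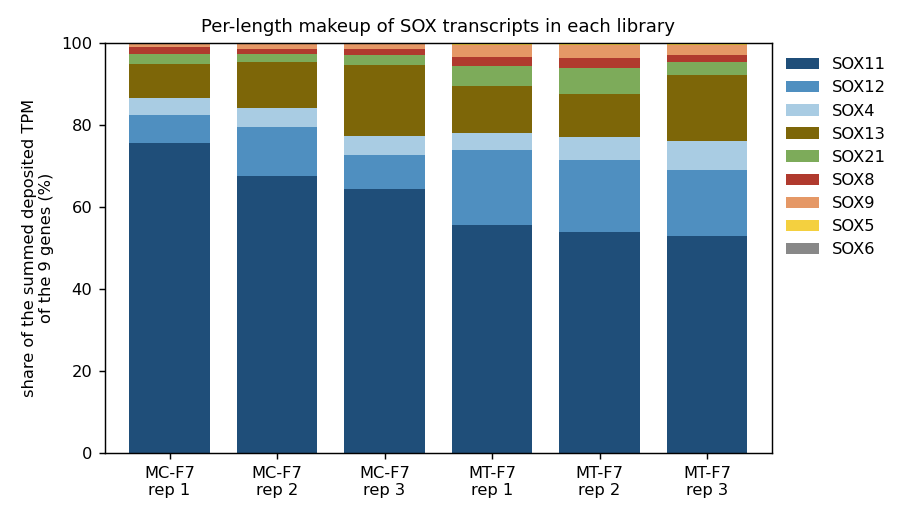
Share of each gene in the summed deposited TPM of the 9 SOX genes, in percent, with 1 stacked bar per library. SOX11 takes 64.4% to 75.7% of the sum in MC-F7 and 53.0% to 55.6% in MT-F7, and SOX12 takes 17.4% ± 1.22 in MT-F7 beside 9.03% ± 2.71 in MC-F7.

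Of the SOXE genes, SOX9 rose and SOX8 did not pass the test. SOX9, which directs cartilage formation and acts in neural crest and neural stem cells, had 2.21, 3.65 and 3.65 CPM in MC-F7 and 6.21, 6.49 and 4.97 CPM in MT-F7. All MT-F7 libraries lay above all MC-F7 libraries. SOX9 (Entrez gene 100336535) rose from 3.17 ± 0.829 to 5.89 ± 0.811 CPM, a log2 fold change of 0.89 ± 0.260 (SE, adjusted p = 0.025). The 95% confidence interval ran from 1.26-fold to 2.74-fold. The call rested on few counts, 50 to 168 per library. It was lost without replicate 1 of MC-F7 (adjusted p = 0.070), without replicate 1 of MT-F7 (0.090) and without replicate 2 of MT-F7 (0.086), while the log2 fold change stayed between 0.69 and 1.01 in all 6 fits.

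SOX8, a SOXE factor whose roles overlap with those of SOX9, had 5.09, 4.68 and 4.44 CPM in MC-F7 and 5.78, 5.60 and 5.14 CPM in MT-F7. The groups did not overlap, but the lowest MT-F7 library lay just over the highest MC-F7 library. The log2 fold change was 0.22 ± 0.210 (SE, adjusted p = 0.50), with a 95% confidence interval from 0.847 to 1.59 times the level in MC-F7. SOX9 per SOX8, in TPM, was 0.561, 1.01 and 1.06 in the MC-F7 libraries, against 1.39, 1.496 and 1.25 in MT-F7. The pair together held 2.77% ± 0.168 of the summed TPM of the 9 genes in MC-F7, against 5.01% ± 0.710 in MT-F7.

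The 3 SOXD genes lay far apart in level and in change. SOX5, a partner of SOX9 in cartilage that also times the making of neurons, had the largest fold change of the 8 tested genes from the lowest level. Its counts were 7, 7 and 10 in the MC-F7 libraries, against 38, 33 and 43 in MT-F7. Each MT-F7 library held over 3 times the counts of any MC-F7 library. In CPM these were 0.310, 0.290 and 0.468 in the MC-F7 libraries, against 1.51, 1.27 and 1.83 in MT-F7. SOX5 (Entrez gene 533829) rose from 0.356 ± 0.0973 to 1.54 ± 0.276 CPM, a log2 fold change of 2.10 ± 0.434 (SE, adjusted p = 0.0039). Its 95% confidence interval was wide, from 2.24-fold to 8.23-fold. SOX5 was called in all 6 fits with 1 library left out, with log2 fold changes from 1.95 to 2.33. The absolute change was larger than that of 97.1% of all tested genes, and the mean level was above that of 7.70% of them. SOX5 came through the low-count filter by its MT-F7 level, so this rank is a description only.

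SOX13, a SOXD factor known from lymphocytes and neural tissue, had the widest relative spread of the 8 genes in MC-F7. It was at 18.0, 26.4 and 38.3 CPM in MC-F7 and at 21.6, 18.1 and 31.0 CPM in MT-F7, and the groups overlapped. Replicate 3 was the highest library in both groups. The coefficient of variation was 37.1% for MC-F7 and 28.2% for MT-F7, where counting error gives 4.01% and 4.15%. The log2 fold change was -0.23 ± 0.262 (SE, adjusted p = 0.58), with a 95% confidence interval from 0.577 to 1.27 times the level in MC-F7. It was 0.077 without replicate 3 of MC-F7, so the direction rested on that library. SOX13 per SOX5, in TPM, was 99.2, 155 and 140.0 in the MC-F7 libraries, against 24.4, 24.3 and 29.0 in MT-F7.

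SOX6, the other cartilage partner of SOX9, had 0 counts in each MC-F7 library and 0, 4 and 2 counts in the MT-F7 libraries. Both groups had a mean under the 3 counts taken as detected, so no fold is given, and no difference was detectable at this depth. In a fit of every gene with 1 count or more, its adjusted p was 0.23. The paper names SOX6 among markers of primed pluripotency that were significantly higher in MT-F7, a call that these few counts did not give here. In RefSeq's ARS-UCD2.0 annotation SOX6 overlaps C15H11orf58, and SOX5 overlaps LOC101905232, which was not in the count table. Whether the counting used strand is not given in the sources used here.

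SOX21, a SOXB2 repressor that promotes the exit of neural progenitors towards neurons, had 2.43, 2.03 and 2.24 CPM in MC-F7 and 4.06, 5.02 and 2.59 CPM in MT-F7. All MT-F7 libraries lay above the MC-F7 libraries, with replicate 3 just over them. The mean was 2.24 ± 0.201 CPM in MC-F7 and 3.89 ± 1.22 CPM in MT-F7. The log2 fold change was 0.80 ± 0.297 (SE, adjusted p = 0.070), with a 95% confidence interval from 1.11-fold to 2.72-fold. Without replicate 3 of MT-F7 it was 1.02 and SOX21 passed (adjusted p = 0.021), and in no other fit with 1 library left out did it pass. Replicate 3 of MT-F7 had 61 counts, a 95% Poisson interval of 1.98 to 3.33 CPM, which overlapped with the intervals of all 3 MC-F7 libraries.

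**Figure D4:**
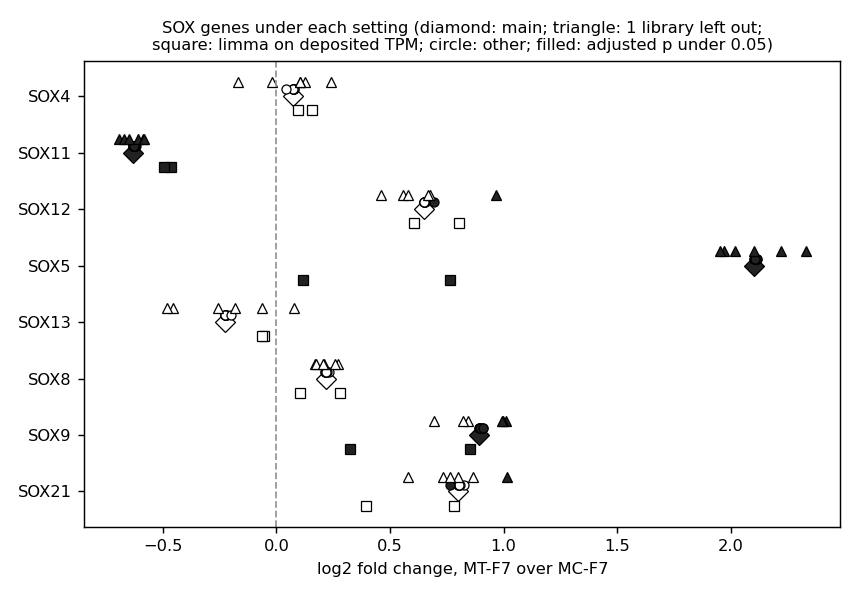
Log2 fold change of the 8 tested SOX genes under every setting used, with diamonds for the main test, triangles for fits without 1 library, squares for limma on the deposited TPM, circles for the other settings, and filled symbols for an adjusted p under 0.05. SOX11 and SOX5 stay filled throughout, SOX9 loses its fill in 3 fits with 1 library left out, and SOX4 and SOX13 have symbols on both sides of 0.

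Of 7 further SOX family genes that were looked up, 6 were in the count table, 3 had enough counts to be tested and 1 passed (33.3%, beside 23.2% of all genes). SOX15, the SOXG gene that is known from stem cells of the mouse and from muscle, had 21.3, 18.7 and 21.3 CPM in MC-F7 and 11.2, 9.85 and 16.5 CPM in MT-F7. It fell from 20.4 ± 1.54 to 12.5 ± 3.53 CPM without overlap, a log2 fold change of -0.71 ± 0.204 (SE, adjusted p = 0.023). The call was lost without replicate 1 or 2 of MC-F7 (adjusted p = 0.057 and 0.052) and without replicate 1 or 2 of MT-F7 (0.092 and 0.10). It was also lost with limma on log2(TPM + 1) (adjusted p = 0.068) and log2(TPM + 0.1) (0.064), values that keep the library size. The call was thus lost in 6 of 15 alternatives. SOX10, the SOXE gene of neural crest and glia, had 2.68 ± 0.715 and 1.93 ± 0.122 CPM, with a log2 fold change of -0.47 (adjusted p = 0.29). SOX18, a SOXF gene of blood vessels, had 2.15 ± 0.810 and 1.44 ± 0.366 CPM, with a log2 fold change of -0.57 (adjusted p = 0.31). SOX7 counts were 0, 1 and 4 on the mitomycin C-treated feeders and 7, 6 and 2 on the methanol-fixed ones, and SOX30 counts were 0, 0 and 0 and 4, 6 and 0. SOX14 had 0 counts in all 6 libraries.

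Genes of the tissues in which these SOX factors are known to act were counted in the same test. These lists and the marker lists below were chosen with earlier results of these data known. Their shares of called genes are therefore descriptions only, and a listed gene could pass the low-count filter through its level in 1 group only. Of 20 genes of neural progenitors and neurons, 19 were in the count table and 12 were tested. Of these, 8 passed (66.7%, beside 23.2% of all genes), 7 higher and 1 lower, and the median log2 fold change was 0.80. PAX6, a regulator of neural progenitors and the eye, rose from 2.63 ± 0.259 to 19.9 ± 0.591 CPM, a log2 fold change of 2.92 ± 0.188 (SE, adjusted p = 7.7e-07). MAP2, a microtubule protein of neurons, rose from 9.37 ± 2.25 to 41.2 ± 8.09 CPM (adjusted p = 1.6e-05). STMN2, another neuronal microtubule regulator, rose from 256 ± 44.4 to 469 ± 102 CPM (adjusted p = 0.0062). ELAVL3, an RNA-binding protein of neurons, was the 1 lower gene and is named after its value was seen, with 4.08 ± 0.852 and 0.799 ± 0.291 CPM (adjusted p = 4.4e-04). TUBB3, a neuronal tubulin also named after its value was seen, had 202 ± 16.7 and 174 ± 13.2 CPM and did not pass (adjusted p = 0.31). DCX and NEUROG1 were among the 7 genes with too few counts.

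For cartilage matrix, where SOX9, SOX5 and SOX6 are known to act together, 12 of 15 listed genes were in the count table and 10 were tested. Of these, 2 rose, 1 fell and 7 did not pass, and the median log2 fold change was -0.20. The share called was 30.0%, near the 23.2% of all genes, and 5 genes were called under a replicate block. COL2A1, the main collagen of cartilage and a known SOX9 target, rose from 979 ± 87.3 to 1759 ± 347 CPM, a log2 fold change of 0.84 ± 0.183 (SE, adjusted p = 0.0052). COL11A1, a collagen of the same fibrils, rose from 26.3 ± 4.05 to 44.0 ± 1.11 CPM (adjusted p = 0.0047). MATN4, a matrix protein, fell from 6.68 ± 0.806 to 0.275 ± 0.244 CPM (adjusted p = 5.1e-05), and 1 MT-F7 library had none of its counts. ACAN, the main proteoglycan of cartilage, had at most 3 counts in any library.

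Of 19 genes of neural crest and glia, 18 were in the count table and 12 were tested, of which 2 rose, 1 fell and 9 did not pass, with a median log2 fold change of 0.34. The share called was 25.0%, near the 23.2% of all genes, and with no filter beyond 1 count 5 genes were called. FOXD3, a factor of pluripotent cells and early neural crest, fell from 6.58 ± 0.494 to 1.16 ± 0.358 CPM (adjusted p = 5.0e-05). PAX3, a factor of the dorsal neural tube and neural crest that was named after its value was seen, rose from 0.228 ± 0.200 to 2.88 ± 0.908 CPM (adjusted p = 9.2e-04). ERBB3, a receptor of neural crest and Schwann cells, had the highest level of the list and did not pass (8.72 ± 0.530 and 11.1 ± 0.913 CPM, adjusted p = 0.17).

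**Figure D5:**
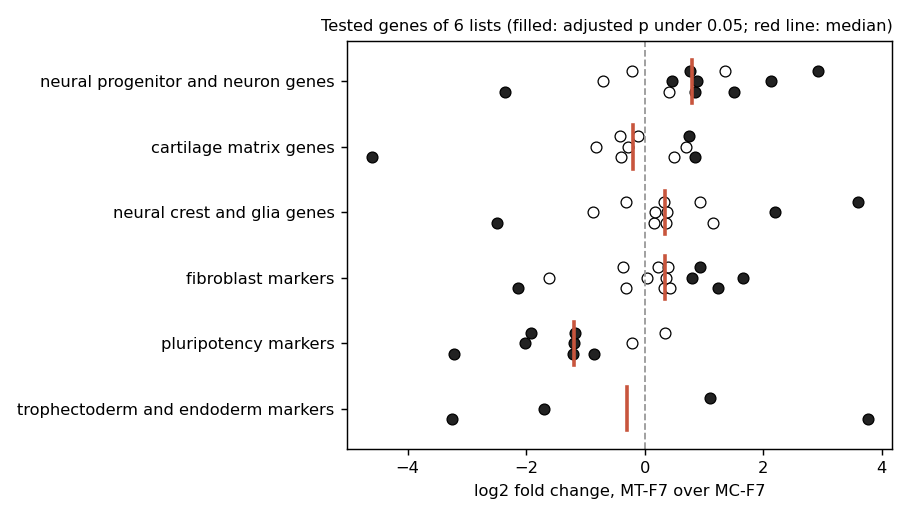
Log2 fold change of MT-F7 over MC-F7 for the tested genes of 6 lists, with 1 point per gene, filled points for an adjusted p under 0.05 and a red line at the list's median. The neural list has its median at 0.80 and the pluripotency list at -1.19, and every list holds genes on both sides of 0.

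Markers of the labelled cells and of other cell types moved between the groups as well, and their part in the SOX results was not tested. Of 13 pluripotency markers, 9 were in the count table and tested, and 7 fell and none rose (77.8% called, beside 23.2% of all genes), with a median log2 fold change of -1.19 and a summed level of 1785 to 2612 CPM in MC-F7 and 891 to 1041 CPM in MT-F7. The 2 others were SALL4 and PODXL. CDH1, an adhesion protein of epithelial and stem cells, fell from 371 ± 49.2 to 98.1 ± 9.17 CPM (adjusted p = 5.2e-06). POU5F1, a core pluripotency factor, fell from 1196 ± 329.6 to 522 ± 35.6 CPM (adjusted p = 0.0012), and NANOG, another, from 43.5 ± 9.03 to 10.7 ± 1.23 CPM (adjusted p = 1.1e-05). Of 15 fibroblast markers all were in the count table and 14 were tested, of which 4 rose and 1 fell (35.7% called, beside 23.2% of all genes), with a median log2 fold change of 0.34. The 4 were COL3A1, COL5A1, POSTN and PDGFRB, and TWIST2 fell. Their summed level was 329.5 to 392 CPM in MC-F7 and 495 to 538 CPM in MT-F7. COL1A1, at 205 ± 31.4 and 268 ± 15.6 CPM, made up the largest part and did not pass (adjusted p = 0.094), COL3A1 rose from 14.6 ± 1.99 to 45.8 ± 10.3 CPM, and FAP had 0 counts in all MT-F7 libraries. Of 13 trophectoderm and endoderm markers, CDX2, HAND1, GATA4 and AFP were at 0 in all 6 libraries, and only 4 could be tested. All 4 passed (100.0%, beside 23.2% of all genes). TTR, with 1, 3 and 4 counts in MC-F7, came through the low-count filter by its MT-F7 level. FOXA2 (10, 9 and 18 counts in MT-F7) and GATA2 (6, 6 and 13) came through it by their MC-F7 level. The share thus describes the tested genes only and is partly set by the filter. APOA1 and TTR rose, and FOXA2 and GATA2 fell, with a median log2 fold change of -0.30. The summed level of this list was 127 to 207 CPM in MC-F7 and 331 to 370 CPM in MT-F7, most of it APOA1, with 161 ± 40.4 and 346 ± 19.2 CPM.

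The nearest genes of the count table on each side of the 9 SOX genes were looked up after the SOX values had been seen. Their order was that of RefSeq's ARS-UCD2.0 annotation, and genes absent from the count table were passed over. There were 18 such neighbours with counts listed, and of the 11 tested 2 were called, a share of 18.2% that lies below the 23.2% of all genes. The 2 were BCAT1, next to SOX5, with a log2 fold change of 0.84 (adjusted p = 0.0068), and PLEKHA7, next to SOX6, with 1.39 (adjusted p = 0.0036). ETNK1, on the other side of SOX5, had a log2 fold change of 0.74 and did not pass (adjusted p = 0.20). The neighbours of SOX11 and SOX9 had too few counts to be tested. Over the 6 libraries, the genes most like SOX11 in log2(CPM + 0.5) were SNRPA (Pearson's r = 0.9995) and CCKBR (0.9992). Those most like SOX5 were BOC (0.9974) and THSD7B (0.9973), and those most like SOX9 were RPA1 (0.9992) and IRAK4 (0.9984). These are descriptions of 6 points that share the difference between the groups, and 449 genes followed SOX11 with an r over 0.95, 424 followed SOX5 and 84 followed SOX9.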

How the data were processed

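The 3 MC-F7 and 3 MT-F7 RNA-seq libraries were analysed. According to the submitters' processing notes the authors used HISAT2 2.0.5 for alignment to a Bos taurus genome and featureCounts 1.5.0-p3 for counting, and the deposited count table holds unnormalized reads per Entrez gene. The genome build is not given in the sources used here. They also deposited a second table of values called TPM, with 21357 identifiers. The ratio of count to TPM was the same in all libraries (tolerance 0.1%) for 9681 of 9682 genes with at least 50 counts in each, so these values keep the library size, and the columns sum to 155595 to 165666. They served only to compare levels between genes and as an alternative. No per-sample column was left unused.

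Symbols came from RefSeq's table for ARS-UCD2.0, which matched 19074 of 19163 Entrez identifiers. The SOX genes had the same count per TPM in all libraries where they were counted. The low-count filter was filterByExpr (count 10, total 15) of edgeR 4.0.16 under R 4.3.3, and the kept genes were normalized by TMM (factors 0.971 to 1.04). MT-F7 and MC-F7 were compared by glmQLFit and glmQLFTest without a block, over all 13001 kept genes, after a test on simulated data. Confidence intervals use the model's standard error and degrees of freedom. The SOX genes, the further SOX genes and the lists were chosen with earlier results of these data known. Named were all SOX genes and, from each other list, the 2 genes with the lowest adjusted p and the 1 with the highest CPM, and for each called SOX gene the 2 genes with the highest Pearson's r of log2(CPM + 0.5) among those with a mean of at least 1 CPM. A few others were named after their values were seen, and 1 gene that this rule picks is not reported here. Alternatives were RLE factors, library size only, DESeq2 1.42.0, edgeR's likelihood ratio test, no filter beyond 1 count, 10 counts or more in all libraries, a replicate block, leaving out each library in turn, and limma 3.58.1 on log2(TPM + 1) and log2(TPM + 0.1). Replicates differed by more than sampling noise in all 6 pairs. Tables and plots were made with Python 3.11.15, pandas 2.3.3 and scipy 1.17.1.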

Additional observations from a re-analysis of the deposited data

How the results depend on the processing

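The number of called SOX genes was 3 in the main test, 5 with edgeR's likelihood ratio test, 5 with the replicate number as a block, and 2 to 4 in the fits that each left out 1 library. SOX11 was called in all 15 alternatives and SOX5 in the 14 that could be run, since it had under 10 counts in some libraries and was absent where each had to have 10. SOX9 was called in 12 of 15, SOX12 in 5 and SOX21 in 3, and SOX4, SOX8 and SOX13 in none. The log2 fold change of SOX4 ran from -0.17 to 0.24 and that of SOX13 from -0.48 to 0.077 with 1 library left out. SOX5's log2 fold change was 0.12 on log2(TPM + 1), where the added 1 is far above its level. Over all genes 3016 were called, 4674 with the replicate block and 1914 to 3093 with 1 library left out, the lowest without replicate 2 of MC-F7. Higher genes made up 51.5% of the calls in the main test and 65.4% with limma on log2(TPM + 1), values that keep the library size.

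The labels give the same replicate numbers in both groups but do not say that they pair libraries. After group means were removed, same-numbered libraries had correlations across genes of 0.134, 0.0445 and 0.417, and replicates 1 and 2 did not correlate best with their own number, so the block is only an alternative. With it SOX12 (adjusted p = 0.0050) and SOX21 (adjusted p = 0.042) also passed. SOX5, SOX9 and SOX21 had from 7 to 168 counts per library, which limits the precision of their fold changes.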
